A study of Mus musculus with 3 samples.

Results

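Immunoglobulin variable (V) genes were read as RNA in single B cells of the mouse lung, to describe which V genes B cells carried in naive lungs and, as recipient cells, in transplanted lungs. The members were all gene features whose symbol starts with Ighv (heavy chain), Igkv (kappa light chain) or Iglv (lambda light chain), which came to 348 of 32285 genes in the files, with 185 heavy, 160 kappa and 3 lambda genes. There were 3 single-cell RNA-Seq libraries, 1 for each group, and each pooled cells of 2 mice. The naive library came from left lungs of C57BL/6J mice that had no operation. In the 2h and 3d libraries, a left lung of a CD45.2 C57BL/6J donor was placed into a recipient of the congenic CD45.1 B6 strain after 60 min at 4 °C and 45 min at 28 °C, and was taken 2 hours or 3 days after reperfusion. The labels give C57BL/6J as the strain of every sample, and donor and recipient differed at the CD45 marker. The mice of the study were 8 to 10 weeks old. Cells were stained for CD45.1 and CD45.2, and recipient cells were sorted. The sources used here do not give the gate for the naive lungs. With 1 library per group, no difference between groups has a replicate check, no test between groups was run, and the intervals below (95%, exact) cover counting error only.

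A B cell makes its receptor by joining 1 V segment to a J segment (and, in the heavy chain, a D segment between them) and transcribing the joined exon together with a constant gene. V segments are chosen in the developing cell, and most B cells carry 1 productive heavy chain and 1 productive light chain, kappa or lambda. Mouse B cells mostly use kappa, whose V genes lie in both orientations along the locus, while the mouse lambda locus is very small. Plasma cells transcribe their rearranged genes at a far higher level than resting B cells.

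Some V genes are so alike that short reads can fail to tell them apart, and the sequences below are shown for the genes on which the results turn. Each is the last 150 bases of the reference transcript (GENCODE annotation of GRCm38), ending near the joint with J. Capitals mark bases that differ from the first gene of each set. The kappa pair holds Igkv1-117, the V gene with the most UMIs (unique molecular identifiers, here counts of RNA molecules), at chr6:68121678-68121827 on the plus strand, and Igkv1-110, at chr6:68271118-68271267 on the plus strand.
Igkv1-117: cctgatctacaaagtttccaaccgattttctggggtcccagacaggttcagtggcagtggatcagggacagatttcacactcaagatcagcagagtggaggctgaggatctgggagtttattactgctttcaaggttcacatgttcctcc
Igkv1-110: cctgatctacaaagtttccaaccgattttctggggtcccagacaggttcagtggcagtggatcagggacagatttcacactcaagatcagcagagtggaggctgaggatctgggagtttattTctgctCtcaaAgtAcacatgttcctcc
These differed at 4 of the 150 bases, and their whole transcripts were 97.5% identical. The lambda genes lie on the minus strand at chr16:19085017-19085166 (Iglv1), chr16:19260401-19260550 (Iglv2) and chr16:19241207-19241356 (Iglv3).
Iglv1: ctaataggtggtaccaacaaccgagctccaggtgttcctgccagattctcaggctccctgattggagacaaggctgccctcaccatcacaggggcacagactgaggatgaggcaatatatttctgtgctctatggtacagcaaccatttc
Iglv2: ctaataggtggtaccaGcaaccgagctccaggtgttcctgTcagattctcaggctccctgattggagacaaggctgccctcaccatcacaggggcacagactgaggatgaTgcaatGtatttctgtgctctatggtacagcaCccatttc
Iglv3: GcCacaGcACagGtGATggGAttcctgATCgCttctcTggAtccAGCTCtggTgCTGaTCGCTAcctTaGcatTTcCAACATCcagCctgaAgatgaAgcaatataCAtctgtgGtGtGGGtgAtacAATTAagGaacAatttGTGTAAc
Iglv2 differed from Iglv1 at 5 bases, and Iglv3 at 67, so that Iglv1 and Iglv2 are the pair that counting could split wrongly. Ighv1-53, at chr12:115158403-115158552, and Ighv1-54, at chr12:115193675-115193824, both on the minus strand, are shown because each led the heavy chain of 1 cell rich in IgA RNA. The other such cells were led by Ighv5-9-1 and Ighv1-22.
Ighv1-53: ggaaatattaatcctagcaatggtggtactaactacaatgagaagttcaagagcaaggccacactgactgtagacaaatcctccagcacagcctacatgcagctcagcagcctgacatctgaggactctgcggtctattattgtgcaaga
Ighv1-54: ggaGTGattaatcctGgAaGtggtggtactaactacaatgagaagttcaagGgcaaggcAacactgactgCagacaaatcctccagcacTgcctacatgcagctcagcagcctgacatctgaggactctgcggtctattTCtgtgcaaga
Ighv1-53 and Ighv1-54 differed at 12 bases. Ighv1-26, at chr12:114788372-114788521 on the minus strand, was the heavy V gene found in the most cells.
Ighv1-26: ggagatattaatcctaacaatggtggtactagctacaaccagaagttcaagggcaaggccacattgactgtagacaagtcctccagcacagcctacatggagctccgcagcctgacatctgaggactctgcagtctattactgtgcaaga
Ighv1-72, at chr12:115757984-115758133, and Ighv1-62-3, at chr12:115460999-115461148, both on the minus strand, show the limit of mapping within the Ighv1 family, since they differed at 1 base.
Ighv1-72: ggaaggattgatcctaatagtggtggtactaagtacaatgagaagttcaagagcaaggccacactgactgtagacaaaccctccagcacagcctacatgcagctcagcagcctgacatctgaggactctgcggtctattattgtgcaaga
Ighv1-62-3: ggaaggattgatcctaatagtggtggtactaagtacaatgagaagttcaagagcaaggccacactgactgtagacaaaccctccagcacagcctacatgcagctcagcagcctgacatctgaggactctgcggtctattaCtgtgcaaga
Counts for Ighv1-72 are therefore uncertain, as 1.91% of its 31-base words occur in no other V gene transcript.

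B cells were the cells with at least 2 UMIs of Cd79a, Cd79b and Ms4a1 together (2 subunits of the B cell receptor and CD20) and no Cd3e, which encodes a T cell receptor subunit. After the study's limits on genes, UMIs and mitochondrial RNA there were 528 B cells of 2422 cells in the naive library, 1013 of 10283 at 2h and 2114 of 8324 at 3d. All 9 genes of the B cell marker list had UMIs in the B cells of every library, but Cd79a, Cd79b and Ms4a1 were part of the rule. The presence of UMIs is no check of identity, as neutrophils of every library had UMIs of 6 of the 9 genes. The libraries stood apart in depth, with a median of 6319 UMIs per B cell in the naive library, 813 at 2h and 5164 at 3d. Total gene UMIs were 28538529, 10749100 and 70750470. RNA of other cells also differed: the 6 neutrophil markers, all with UMIs in each library, summed to 242 UMIs per 1000000 UMIs (CPM) in naive B cells, 3453 CPM at 2h and 4653 CPM at 3d. At least 2 myeloid UMIs were held by 36.0% of naive B cells, 11.8% at 2h and 88.8% at 3d. A fixed cut in UMIs is harder to reach in shallower cells. As levels, the myeloid genes stood at 591.5, 3840 and 6778 CPM. The part of this RNA in the results below was not tested, save where values without such cells are given. The naive counts were written by Cell Ranger 7.1.0 and the others by 6.0.0, so that this difference and the naive state cannot be told apart. Between libraries 0 barcodes of B cells were shared. Antibody counts, held by the 2h and 3d files, gave a check that uses no RNA: 97.8% of B cells at 2h (991 of 1013) and 93.2% at 3d (1971 of 2114) had at least 2 counts of CD45R (B220), against 2.38% and 2.61% of T cells.

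Of the 348 V genes, 168 had at least 1 UMI in B cells and 180 had none, and 57 were found in all 3 libraries. V genes gave 394 UMIs in naive B cells, 298 at 2h and 747 at 3d. Genes annotated as V genes were found for the most part: 79 of 113 in the heavy locus, 75 of 100 in the kappa locus and 3 of 3 in the lambda locus. Pseudogenes gave little, with 5 of 70 heavy ones holding 6 UMIs and 6 of 60 kappa ones holding 19 UMIs. The other 2 heavy genes, Ighv1-13 and Ighv5-8 on the plus strand, have a gene type of their own (IG_LV) and held 0 UMIs. No UMI fell on a J segment in the B cells or T cells of any library.

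V RNA took a larger share of the RNA of B cells at 2h than in the naive library, and a smaller share at 3d. The level of all V genes was 113 CPM in naive B cells (102 to 124), 286 CPM at 2h (255 to 321) and 56.4 CPM at 3d (52.4 to 60.5). These intervals did not overlap. The order did not hold for each chain. Heavy chain V genes stood at 29.8 CPM in the naive library (24.3 to 36.1), 93.2 CPM at 2h (75.6 to 114) and 33.0 CPM at 3d (30.0 to 36.3), so that the naive and 3d intervals overlapped. Kappa V genes stood at 72.7 CPM in the naive library (64.0 to 82.2), 167 CPM at 2h (143 to 194) and 21.4 CPM at 3d (19.0 to 24.1), with no overlap. Lambda V genes were at 10.3 CPM (7.22 to 14.3), 25.9 CPM (17.1 to 37.8) and 1.89 CPM (1.22 to 2.78).

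As log2 ratios of levels, 3d over naive was 0.15 for heavy (-0.16 to 0.47), -1.76 for kappa (-2.01 to -1.51) and -2.45 for lambda (-3.25 to -1.67). The light chain V genes were thus lower at 3d while the heavy chain V genes were not distinguishable from the naive level at this depth. For 2h over naive the log2 ratio was 1.65 for heavy (1.23 to 2.06), 1.2 for kappa (0.92 to 1.49) and 1.33 for lambda (0.56 to 2.09), intervals that overlap one another. The lambda value rested on few cells: without the 2 plasma-like cells described below it was 0.40, and with B cells chosen at 2h by the CD45R antibody it was -0.14, with 9.36 CPM at 2h against 10.3 CPM in the naive library. Neutrophil RNA in the B cells moved along with the libraries, and without B cells that held myeloid or T cell UMIs the level of all V genes was 119 CPM, 328 CPM and 54.2 CPM, in the same order. B cells chosen by at least 5 CD45R antibody counts in place of RNA gave 214 CPM at 2h and 58.9 CPM at 3d.

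**Figure D1:**
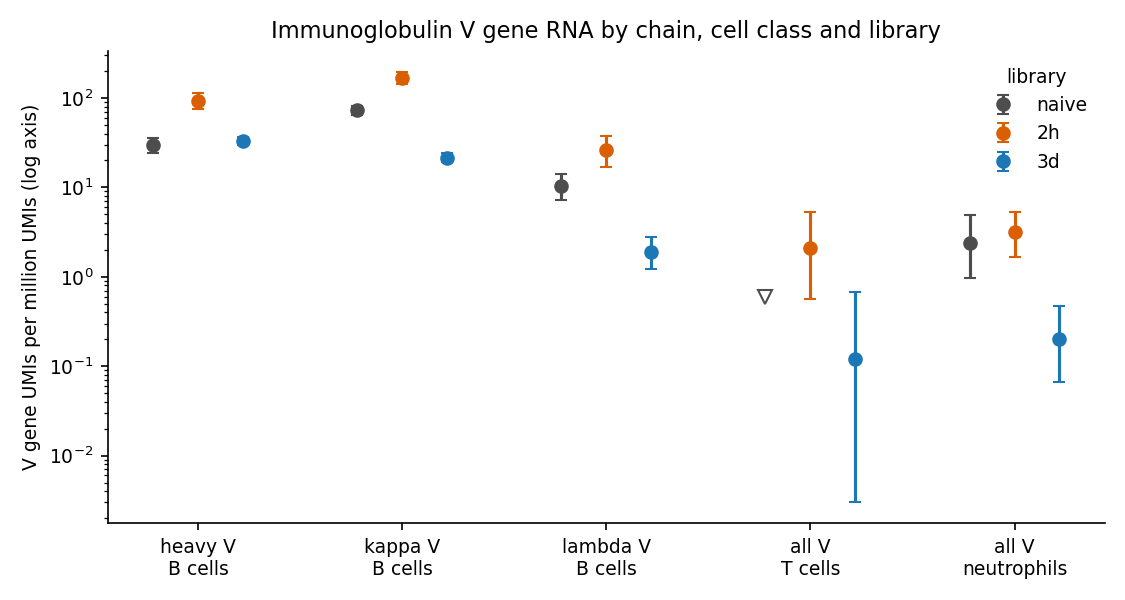
Level of heavy, kappa and lambda V genes in B cells and of all V genes in T cells and neutrophils of each library, in CPM on a log axis, as points with exact 95% intervals for counting error; the open triangle is the limit of 3 counts for naive T cells, which had none. B cells sit highest in every library, kappa V genes lie at 167 CPM at 2h and 21.4 CPM at 3d, and heavy V genes at 3d (33.0 CPM) lie close to the naive level (29.8 CPM).

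Igkc, Ighm and Ighd, constant genes that are spliced to the V exon in the same RNA, did not follow the order of the V genes. Igkc, the kappa constant gene, stood at 5434 CPM in the naive library, 4526 CPM at 2h and 4706 CPM at 3d. Ighm, which encodes the IgM heavy chain, stood at 2357, 1484 and 2361 CPM, and Ighd, for IgD, at 638, 598 and 899 CPM. All 12 constant genes summed to 9880, 10535 and 8814 CPM, but the 2h sum drew on the 2 plasma-like B cells described below. They held 266 and 580 of the 931 Igha UMIs at 2h, and 1 of them held 1474 of the 1904 Iglc3 UMIs. That cell held 1479 lambda constant UMIs in all, and the other held 625 of Igkc and 8 of lambda constant genes. Taking the UMIs of these cells out puts the 2h sum below those of the naive and 3d libraries. The sum of the constant genes thus did not follow the order of the V genes in the other B cells. V UMIs were few against constant UMIs, and by a different amount in each library. For kappa there were 1.34 V UMIs per 100 constant UMIs in naive B cells (1.18 to 1.51), 3.69 at 2h (3.16 to 4.30) and 0.455 at 3d (0.404 to 0.512). For heavy chains the ratio was 0.989 (0.807 to 1.2), 3.13 (2.53 to 3.83) and 1.0 (0.911 to 1.1). For lambda it was 0.717 (0.501 to 0.994), 0.857 (0.564 to 1.25) and 0.231 (0.150 to 0.342).

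The same ratio for T cell receptor genes in T cells of these libraries shows whether B cells stand alone. For the beta chain, V UMIs per 100 constant UMIs were 1.5 in the naive library, 3.81 at 2h and 0.909 at 3d, the same order as for kappa. For the alpha chain they were 9.92 (8.29 to 11.8), 8.07 (6.24 to 10.3) and 4.02 (3.21 to 4.98). The naive and 2h intervals overlapped, and 3d was lowest. The labels list both a 5′ and a 3′ kit and the methods a 3′ kit, and which kit made which library is not settled by them. The part of the kit and of depth in these ratios was not tested.

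At least 1 V UMI was seen in 40.7% of naive B cells (215 of 528), 19.8% at 2h (201 of 1013) and 27.5% at 3d (582 of 2114). This order was not that of the levels, and it goes with depth. With each cell thinned to 500 UMIs, which left out 30 shallower cells at 2h, the shares were 5.87%, 11.5% and 3.03%, the order of the levels. In T cells as deposited, which do not join these genes, a V UMI was seen in 0 of 500 naive cells, which allows a share of up to 0.735%. It was seen in 0.223% at 2h (3 of 1345) and in 0.109% at 3d (1 of 921). T cells were nevertheless deeper, with medians of 9856.5, 1259 and 8318 UMIs. V RNA in B cells thus stood far above that in T cells. The T cell rule left out cells with any B cell marker UMI, so the T cell values may understate free RNA. In levels, T cells held no V UMI in the naive library, 2.09 CPM at 2h and 0.121 CPM at 3d. The T cell UMIs at 2h were 2 of Igkv1-135 and 1 of Ighv1-64 among 4, and the 1 at 3d was of Ighv5-9-1.

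So few V UMIs per cell let few cells be assigned to a gene. A cell was assigned when 1 gene had at least 2 UMIs and more than 50% of the V UMIs of that chain. Heavy chains were assigned in 13 naive B cells (2.46%), 10 at 2h (0.987%) and 42 at 3d (1.99%). Kappa chains were assigned in 38 (7.20%), 16 (1.58%) and 22 (1.04%), and lambda chains in 4, 3 and 2. Usage is therefore given below also by cells with at least 1 UMI of a gene, which were 90, 78 and 379 B cells for heavy V genes and 148, 127 and 250 for kappa V genes. Shares are of UMIs or cells and were not divided by transcript length.

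The Ighv1 family, the largest of the mouse heavy locus, with 53 of the 113 heavy genes annotated as V genes, took a larger share at 3d. It held 45.2% of heavy V UMIs in the naive library (47 of 104, 35.4 to 55.3), 39.2% at 2h (38 of 97, 29.4 to 49.6) and 64.4% at 3d (282 of 438, 59.7 to 68.9), and the 3d interval overlapped neither of the others. Among assigned cells it was 4 of 13, 4 of 10 and 29 of 42, with overlapping intervals. Without B cells that held myeloid or T cell UMIs, the share of UMIs at 3d was 64.1% (39 UMIs, 47.2 to 78.8), which overlaps the others, and 40.0% of 5 assigned cells. Ighv3 went the other way at 2h, with 15.5% of heavy V UMIs against 2.88% in the naive library and 3.20% at 3d. Ighv6 held 9.62%, 10.3% and 2.28%. Ighv5 held 6.73%, 13.4% and 8.90%, but 9 of its 13 UMIs at 2h came from 1 plasma-like cell, and without plasma-like cells it held 4.60% at 2h. Ighv14 held 8.65%, 2.06% and 2.51%. Outside Ighv1 these shares rest on few UMIs in each library.

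Igkv1, with 10 of 100 kappa genes annotated as V genes, held 28.7% of kappa V UMIs in the naive library, 20.7% at 2h and 16.6% at 3d, above its share of genes in each. Igkv12, with 6 such genes, held 13%, 15.5% and 16.2%. Igkv4, the family with the most such genes (26), held 4.72%, 4.60% and 6.69%, below its share of genes. Igkv2 held 10.2% in the naive library and 2.30% and 2.11% after transplantation. Igkv8 held 4.33%, 13.8% and 5.63%, and 20 of its 24 UMIs at 2h came from 1 cell.

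**Figure D2:**
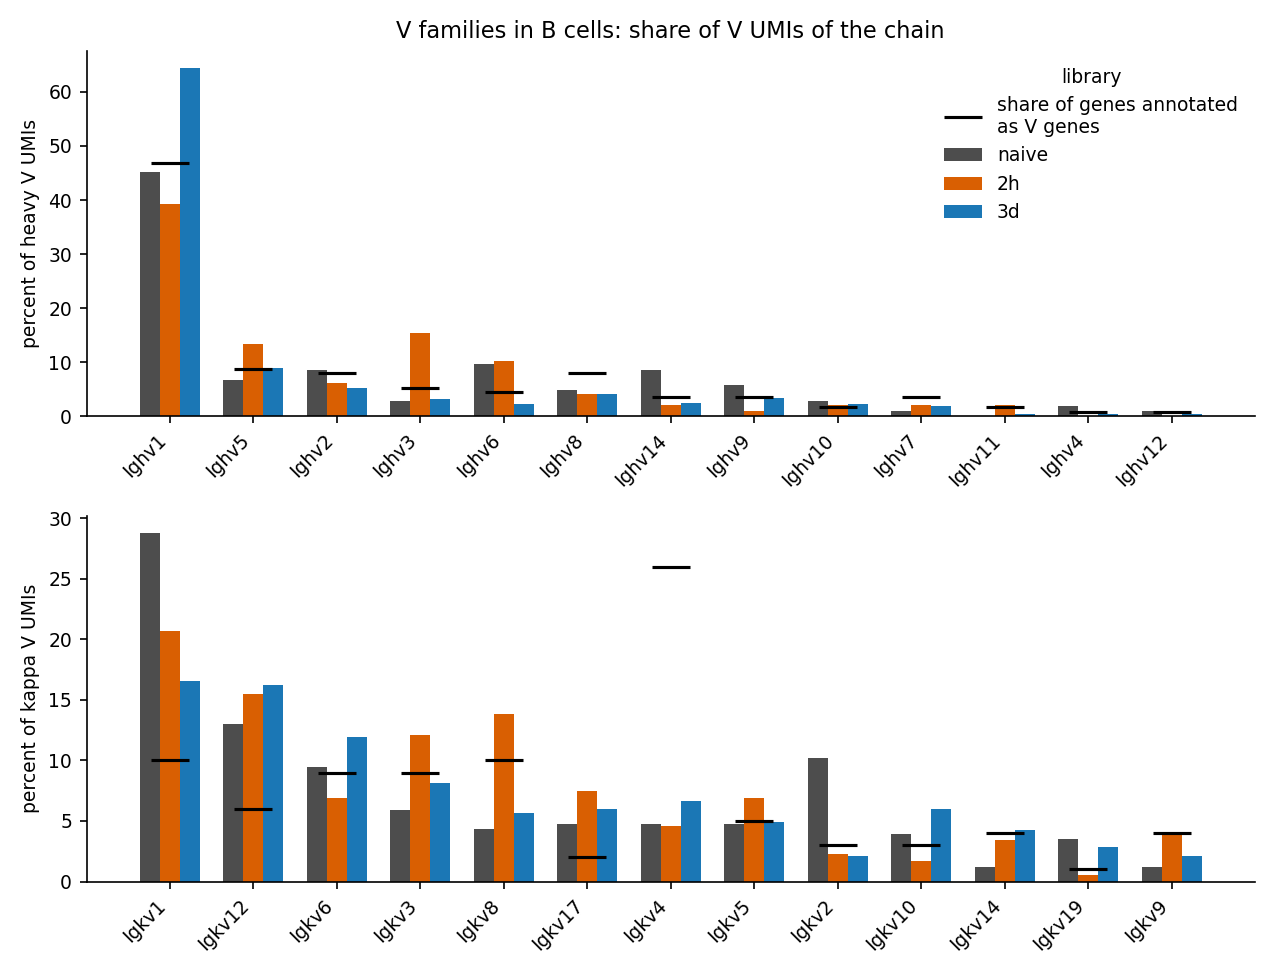
Bars give the percent of heavy (top) or kappa (bottom) V UMIs of B cells held by the V families with the most UMIs in each library, and black lines the family's percent of the genes annotated as V genes. Ighv1 stands at 64.4% at 3d against 45.2% and 39.2%, and Igkv1 lies above its share of genes in all 3 libraries.

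Among heavy V genes, Ighv1-26 was seen in the most cells at 3d. It was seen in 30 B cells at 3d with 37 UMIs, 7.92% of cells with a heavy V UMI (5.40 to 11.1), against 2 cells in the naive library (2.22%, 0.270 to 7.80) and 2 cells at 2h (2.56%, 0.312 to 8.96), so that the intervals overlapped. Ighv3-6 was seen in 3 naive B cells (3.33%, 0.693 to 9.43), 11 at 2h (14.1%, 7.26 to 23.8) and 11 at 3d (2.90%). Its naive and 2h intervals overlapped. It made up 13 of the 15 Ighv3 UMIs at 2h. Ighv6-3 had 5, 7 and 5 cells, with 5.56%, 8.97% and 1.32%. It led the assigned cells of the naive library with 3 of 13.

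By count of cells, several Ighv1 genes were mostly seen at 3d, which also had the most cells with a heavy V UMI (379, against 90 and 78). Ighv1-82 was seen in 4, 0 and 17 cells, Ighv1-64 in 3, 4 and 16, Ighv1-18 in 2, 0 and 14, and Ighv1-72 in 0, 2 and 15. As shares of cells with a heavy V UMI, Ighv1-82 was at 4.44%, 0% and 4.49% and Ighv1-64 at 3.33%, 5.13% and 4.22%. Ighv1-18 was at 2.22%, 0% and 3.69%, and Ighv1-72 at 0%, 2.56% and 3.96%. Ighv9-3, outside that family, was seen in 5, 0 and 11 cells (5.56%, 0% and 2.90%). Ighv14-4 was seen in 5, 0 and 3 cells and was assigned in 2 naive cells only. Ighv1-19 was seen in 2, 2 and 3 cells, with both cells at 2h assigned to it. The other heavy genes named by the assigned share, Ighv1-54, Ighv5-17 and Ighv5-4, had 1 naive cell each, at most 1 cell at 2h, and 5, 4 and 8 cells at 3d. Ighv1-18 and Ighv9-3 were named after their values were seen.

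Igkv1-117 was the leading kappa gene by assigned cells in the naive library, with 9 of 38 cells, and it was assigned in 3 of 16 cells at 2h and 3 of 22 at 3d. It was seen in 15 naive B cells with 33 UMIs, 10 at 2h with 13 UMIs and 22 at 3d with 26 UMIs, which were 10.1%, 7.87% and 8.80% of cells with a kappa V UMI. These shares lie within each other's counting error. Its near copy Igkv1-110 was seen in 15, 11 and 5 cells, or 10.1%, 8.66% and 2.00%, so that the genes parted at 3d. Igkv12-46 (9, 8 and 17 cells), Igkv12-44 (7, 10 and 10 cells) and Igkv1-135 (7, 10 and 8 cells) came next and were found in every library.

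A set of kappa genes was seen mostly in the naive library, although it had the fewest B cells. Igkv6-20 was seen in 10, 1 and 1 cells, or 6.76%, 0.79% and 0.40% of cells with a kappa V UMI. Igkv2-109 had 8, 1 and 3 cells, Igkv12-89 had 8, 1 and 2 cells, Igkv13-84 had 6, 0 and 1 cells, and Igkv2-107, which is annotated as a pseudogene, had 9, 0 and 1 cells. Igkv6-17 had the reverse order, with 0, 4 and 10 cells, while Igkv16-104 (1, 0 and 8 cells) and Igkv10-96 (6, 2 and 15) were fewest at 2h. Igkv17-121 (8, 3 and 8 cells), Igkv5-43 (3, 5 and 9), Igkv3-4 (3, 2 and 7), Igkv12-41 (1, 2 and 6) and Igkv3-10 (0, 2 and 3) complete the genes named by assigned share. Igkv6-20, Igkv2-109, Igkv12-89, Igkv13-84, Igkv2-107, Igkv6-17 and Igkv10-96 were named after their values were seen.

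**Figure D3:**
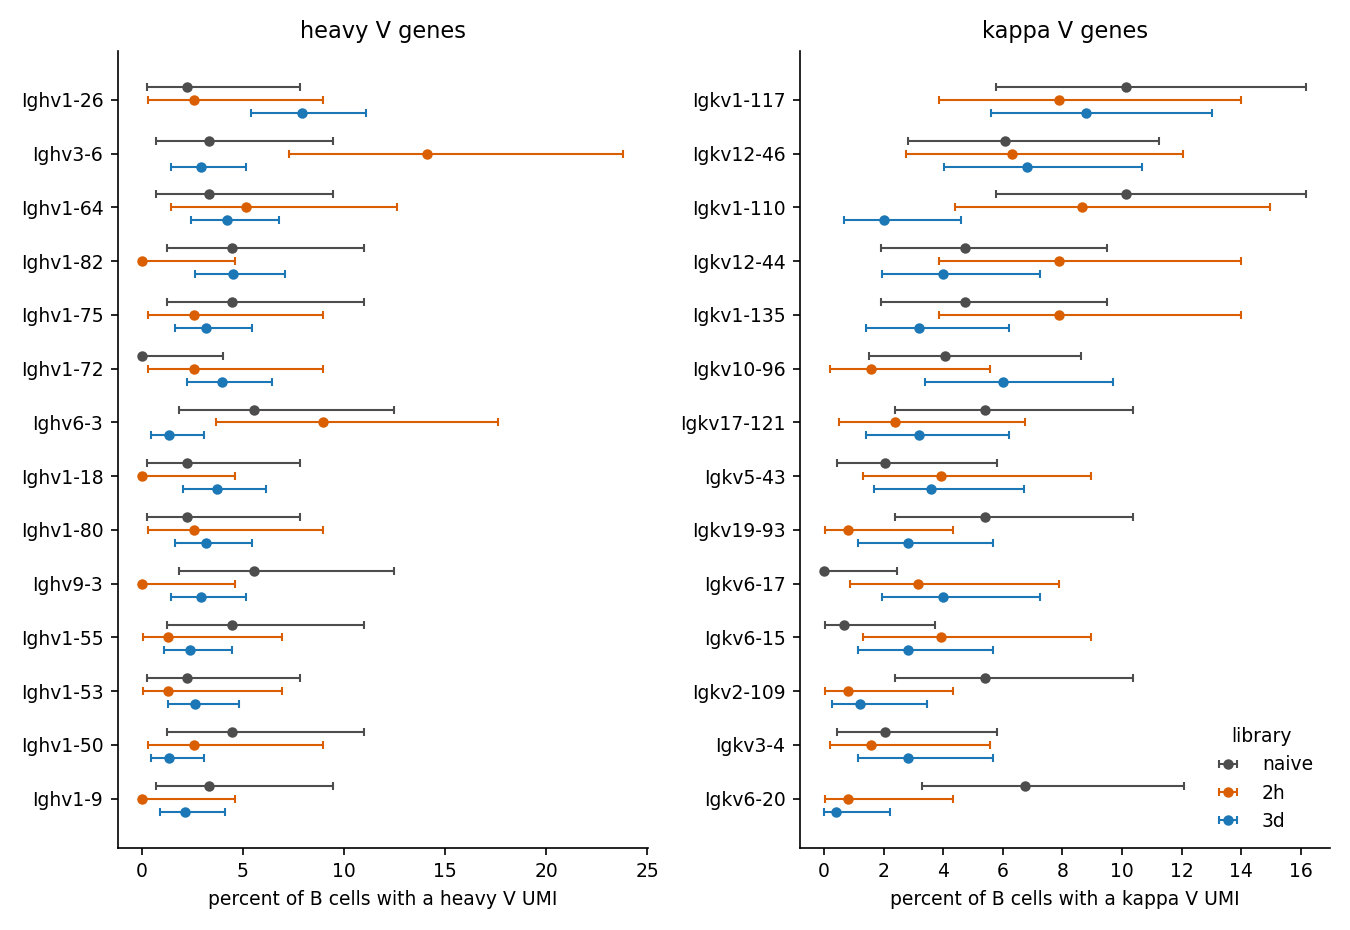
Points give, for the heavy (left) and kappa (right) V genes seen in the most cells, the percent of B cells with a V UMI of the chain in which the gene was seen, per library with exact 95% intervals. Ighv3-6 is highest at 2h (14.1%) and Ighv1-26 at 3d (7.92%), both with intervals that overlap the naive ones. Igkv1-117 lies between 7.87% and 10.1% in every library.

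A fold change between libraries could be given for 1 of the 348 V genes, since the rule asked for at least 50 UMIs over all B cells. Igkv1-117 stood at 9.44 CPM in the naive library, 12.5 CPM at 2h and 1.96 CPM at 3d. On the log2(CPM + 10) scale the differences were 0.21 for 2h over naive, -0.70 for 3d over naive and 0.91 for 2h over 3d, so that 0 V genes passed 2-fold in any direction. The pseudocount is close to the gene's own level, and with a pseudocount of 1 CPM the gene passed 2-fold lower at 3d than in the naive library and higher at 2h than at 3d. By median of ratios, Igkv1-117 passed 2-fold at 2h over 3d. With no cell filter, 1 V gene did so, which need not be Igkv1-117. The plasma-like cell at 3d was then counted, with 38 UMIs of Igkv1-117 and 16 of Iglv1. Of the 10536 genes that met the same rule, 4.54% were past 2-fold higher and 16.6% lower at 2h than in the naive library, 3.75% higher and 10.5% lower at 3d than in the naive library, and 2.86% higher and 5.65% lower at 2h than at 3d. The medians over these genes were -0.21, 0.00 and -0.20. With 1 member no share can be read against this background.

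The lambda genes split by library. Iglv1 was seen in 13 naive B cells with 14 UMIs, 12 at 2h with 26 UMIs and 9 at 3d with 9 UMIs. Iglv3 was seen in 18 naive B cells, 1 at 2h and 13 at 3d. Iglv2 was seen in 1 cell, at 3d, which held 165 UMIs of Iglc2, a lambda constant gene, and 64 of Igkc. Of the constant genes Iglc1, Iglc2 and Iglc3, Iglc2 and Iglc3 are near copies. Their sequences were not compared here. Iglc3 stood at 340 CPM, 1830 CPM and 209 CPM, and 1474 UMIs of it at 2h came from 1 plasma-like cell.

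By constant genes, B cells with at least 3 light chain constant UMIs were put in a kappa class or a lambda class where 80% or more of them were of that chain. This rule was chosen after values were seen. There were 352, 367 and 1580 kappa-class cells, 31, 45 and 84 lambda-class cells, and 116, 295 and 320 cells of neither. At 3d the V genes followed the class: a kappa V UMI was seen in 12.7% of kappa-class cells and in 1 of 84 lambda-class cells (1.19%, 0.0301 to 6.46). At 2h it was 16.6% and 3 of 45 (6.67%). In the naive library, kappa V UMIs were seen in 26.7% of kappa-class cells and 7 of 31 lambda-class cells (22.6%, 9.59 to 41.1), so that no difference between the classes was detectable.

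Lambda V UMIs were seen in 22.6%, 6.67% and 8.33% of lambda-class cells and in 2.84%, 1.09% and 0.696% of kappa-class cells. Most cells with Iglv3 lay outside the lambda class, which was by far the smaller class. Of its cells, 8 of 18 in the naive library, 1 of 1 at 2h and 9 of 13 at 3d were in the kappa class, and 3, 0 and 2 were in the lambda class. As a share of each class, Iglv3 was higher in the lambda class in 2 libraries, on few cells. It was seen in 3 of 31 lambda-class and 8 of 352 kappa-class naive cells, and in 2 of 84 and 9 of 1580 at 3d. At 2h it was seen in 0 of 45 and 1 of 367. For Iglv1 the lambda class held 4, 3 and 5 cells. Over the whole transcripts, Iglv3 was 57.2% identical to Iglv1, against 96.7% for Iglv2.

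**Figure D4:**
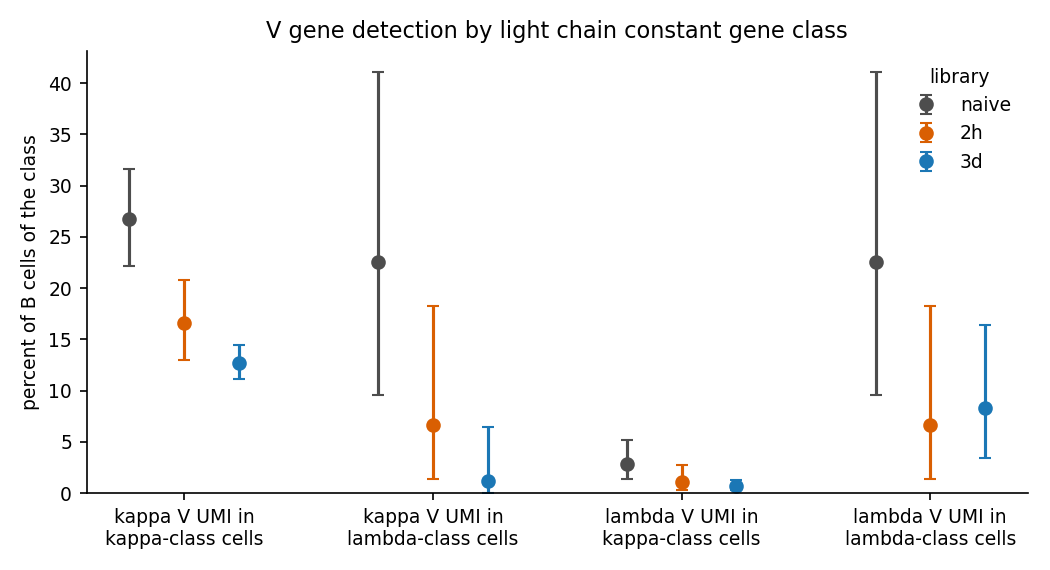
Share of B cells with a kappa or a lambda V UMI among cells of the kappa class and the lambda class of each library, in percent with exact 95% intervals. Kappa V UMIs are seen in 12.7% of kappa-class and 1.19% of lambda-class cells at 3d, and in 26.7% and 22.6% in the naive library.

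Cells with UMIs of more than 1 kappa V gene were also more common in the naive library. They were 29 of 148 cells with a kappa V UMI (19.6%, 13.5 to 26.9), against 4 of 127 at 2h (3.15%) and 8 of 250 at 3d (3.20%). A cell needs at least 2 kappa V UMIs to show 2 genes, and 60, 18 and 29 cells had that many. Set against those cells, the counts were 29 of 60, 4 of 18 and 8 of 29, which lie closer together. For heavy chains such cells were 0 of 90, 1 of 78 and 9 of 379, but only 13, 10 and 50 cells had at least 2 heavy V UMIs. Genes that often shared a cell with another kappa gene in the naive library were Igkv2-109 (5 of 8 cells), Igkv19-93 (4 of 8), Igkv1-110 (7 of 15) and Igkv6-20 (4 of 10), while Igkv1-117 did so in 3 of 15. Doublet calls covered 5 naive B cells. The naive library was also the one written by the newer Cell Ranger. Its median was 6319 UMIs per B cell, against 813 at 2h and 5164 at 3d. The part of either in these counts was not tested.

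Along the loci, kappa V genes in the middle were seen least. The kappa genes were put in order of distance from the J segments and cut into groups of 53, 53 and 54. The farthest group held 45.6%, 44.3% and 43.8% of the gene detections of the naive, 2h and 3d libraries, the middle group 19.2%, 6.11% and 10.9%, and the nearest group 35.2%, 49.6% and 45.3%. Of the genes in these groups 29, 28 and 43 were annotated as V genes. Heavy V genes were spread more evenly: the farthest group held 38.9%, 35.4% and 43.6%, the middle group 25.6%, 26.6% and 30.2% and the nearest group 35.6%, 38.0% and 26.3%. Kappa genes on the plus strand made up 52.7%, 60.3% and 48.8% of detections.

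**Figure D5:**
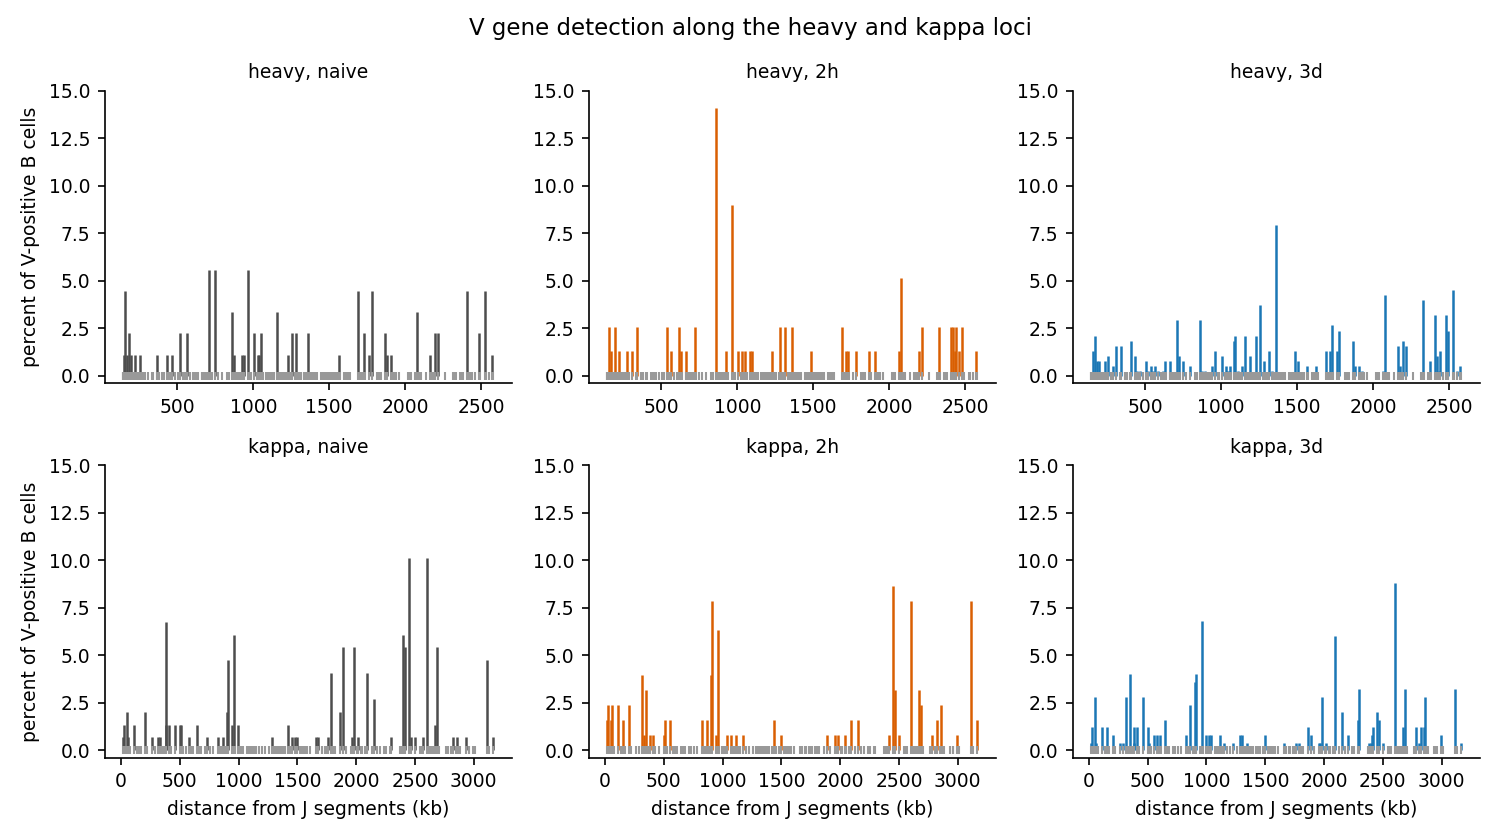
Share of B cells with a V UMI of the chain in which each V gene was seen, in percent, against the gene's distance from the J segments in kb, for the heavy and kappa loci of each library, with grey ticks at all V genes. Middle kappa genes hold 6.11% to 19.2% of detections, and middle heavy genes 25.6% to 30.2%.

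At equal numbers of gene detections the libraries held like numbers of genes. At 79 detections, heavy chains gave 41.4 genes in the naive library, 44 at 2h and 43.2 at 3d. At 131 detections, kappa chains gave 47.7, 46 and 52.6. Pairs of a heavy and a light V gene in 1 cell, each from at least 1 UMI, were seen in 39 naive, 16 2h and 66 3d cells. Most pairs were seen once. Ighv2-2 with Igkv1-117 was seen in 2 naive cells and Ighv3-6 with Igkv12-46 in 2 cells at 2h, and no pair was repeated at 3d. As 1 UMI per chain assigns these pairs, and the joint with J is not read, they do not show clones.

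V genes known from B-1 cells, innate-like B cells whose antibodies bind phosphatidylcholine or phosphorylcholine, were seen in few cells. The 7 genes of that list, Ighv11-1, Ighv11-2, Ighv12-3, Ighv7-1, Igkv14-126, Igkv4-91 and Igkv7-33, were seen in 3 naive B cells (0.568%, 0.117 to 1.65), 4 at 2h (0.395%, 0.108 to 1.01) and 9 at 3d (0.426%, 0.195 to 0.807). Igkv14-126 was seen in 1, 2 and 3 cells, and Igkv7-33 in none. They made up 3 of 303, 5 of 223 and 9 of 669 gene detections in B cells, or 0.990%, 2.24% and 1.35%, and 3.24% of the 216 genes annotated as V genes. Of these cells 1, at 3d, was assigned, to Ighv7-1. Markers of B-1 cells summed to 414, 709 and 1370 CPM, a list that includes genes which other leukocytes also express. The list summed to more in T cells (912, 874 and 1443 CPM) and neutrophils (7022, 3223 and 5873 CPM) of each library. The sums in B cells are therefore no measure of B-1 cells.

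Cells with at least 1% of their UMIs on Jchain, which encodes the joining chain of secreted IgA and IgM, were plasma-like and used V genes at a far higher level. There were 3 at 2h, 1 at 3d and none in the naive library. All held Igha, the IgA constant gene, with 266, 580 and 289 UMIs at 2h and 6205 at 3d. The first cell at 2h held 10 UMIs of Iglv1 beside 1474 of Iglc3. The second held 9 of Ighv5-9-1 and 20 of Igkv8-24 beside 625 of Igkc. The third, with 1 B cell marker UMI and so not a B cell by the rule, held 108 V UMIs among 4143, with 19 of Ighv1-53, 73 of Igkv1-117 and 15 of Iglv1, beside 968 of Igkc and 20 of lambda constant genes. The cell at 3d, which had too many UMIs (38988) to pass the filter, likewise held 11 of Ighv1-54, 38 of Igkv1-117 and 16 of Iglv1, beside 15480 of Igkc and 11 of lambda constant genes. The 2 plasma-like B cells at 2h held 43 of the 298 V UMIs (14.4%), and without them the level at 2h was 248 CPM.

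Genes of V(D)J recombination and receptor assembly were low in B cells, with 12, 8 and 11 of 14 genes having a UMI. Rag1, whose product cuts the V segments, had 17 UMIs in the naive library and 0 after transplantation, and Dntt, which adds bases at the joints, had 21, 0 and 3. Vpreb1 and Igll1, which form the surrogate light chain of precursor B cells, had 17, 0 and 1 and 12, 0 and 0 UMIs. Of these, 1 naive cell, found after values were seen, held 4 Rag1, 19 Dntt, 17 Vpreb1 and 12 Igll1 UMIs with 5 of Ighm and 0 of Igkc. Its V UMIs were 1 of Ighv1-66 and 1 of Igkv2-107. Vpreb3, which stays on in mature B cells, stood at 186, 144 and 101 CPM. Xrcc4 and Prkdc, which join DNA ends in all cells, stood at 109, 12.5 and 12.2 CPM and at 75.3, 4.81 and 22.3 CPM. T cells held 453, 24 and 100 UMIs of Xrcc4 and 278, 23 and 177 of Prkdc, among 5085786, 1917857 and 8291824 UMIs. Per UMI both genes were thus highest in the naive library in T cells too.

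Neutrophils held few V UMIs, at 2.40 CPM in the naive library (7 UMIs), 3.13 CPM at 2h (13) and 0.203 CPM at 3d (5). The neighbours Ighv1-63, Ighv1-64 and Ighv8-10, which lie at chr12:115495625-115519782 and were singled out after values were seen, made up 6 of 7 heavy V UMIs in naive neutrophils and 10 of 12 at 2h, against 4 of 104 and 6 of 97 in B cells. At 3d they were 0 of 3 in neutrophils and 19 of 438 in B cells.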

How the data were processed

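Lungs were dissociated and sorted, and libraries were made on the 10x Chromium system. The authors deposited raw counts (UMIs per gene and cell, not normalized) from Cell Ranger (6.0.0 at 2h and 3d, 7.1.0 for the naive library, per the file headers), and the submitters' processing notes name mm10 and Seurat 4. The handling of intronic reads is not stated in them. The 2h and 3d files also hold antibody counts, of which CD45R was used as a check. The V genes and gene lists were chosen with earlier results of these data known.

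The study's cell limits were applied: genes detected between 200 and 6000, mitochondrial share below 10% and a UMI total below 25000. T cells had at least 2 UMIs of Cd3d, Cd3e and Cd3g and no B cell marker UMI, and neutrophils at least 5 UMIs of S100a8, S100a9, Retnlg and Csf3r and neither B cell marker nor Cd3e UMIs. Levels are UMIs per 1000000 UMIs (CPM) over the summed cells, with exact Poisson and Clopper-Pearson intervals. Python 3.11.15, numpy 2.4.6, scipy 1.17.1 and pandas 2.3.3 were used. Scrublet in scanpy 1.11.5 called 44, 397 and 267 doublets, which were left out in an alternative only. Genes were named by a rule: the 10 per chain with the highest mean share of assigned cells, the 5 with the largest difference for each pair of libraries, the B-1 V genes, the V gene with most UMIs in T cells, and those with most UMIs in 1 cell. Positions and sequences came from GENCODE vM21 (GRCm38), where all 348 gene IDs were found, and the symbols Ighv1-13 and Ighv5-8 each name a pair of genes, kept apart by ID. The scripts were tested on simulated data. The alternatives changed the cell filter, doublets, plasma-like cells, the B cell rule, cells with myeloid or T cell UMIs, the assignment rule, the depth of thinning, the scaling and the pseudocount.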

Additional observations from a re-analysis of the deposited data

Results flagged for a closer look

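Values of V RNA outside the B cells that passed the filter, and of the CD45R antibody in B cells, were flagged to look at again. In neutrophils at 2h, which are not expected to rearrange V genes, Ighv8-10, annotated as a pseudogene, had 7 UMIs in 7 cells, against 1 UMI in naive neutrophils and 0 in B cells of any library. In cells at 2h that were neither B cells, T cells nor neutrophils, Igkv1-117 had 82 UMIs, against 3 in such naive cells, and 73 of them came from the plasma-like cell that leads with Ighv1-53. Cells removed by the filter at 3d held 115 V UMIs (12.8% of the library's), of which 68 were in the plasma-like cell with Ighv1-54. V UMIs in the cells of no class made up 42.3% of the V UMIs of the 2h library (236), and 114 of them lay in 733 cells with at least 5 CD45R antibody counts, whose median was 1 B cell marker UMI and 726 UMIs in all.

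The CD45R antibody, measured outside the RNA, had at least 2 counts in 97.8% of B cells at 2h and 93.2% at 3d, against 3.62% and 4.90% of neutrophils. At 3d the share was 98.6% in B cells with a V UMI (574 of 582) and 91.2% in those without one (1397 of 1532), and at 2h it was 95% (191 of 201) and 98.5% (800 of 812). B cells at 3d with under 3 light chain constant UMIs numbered 130, held 0 V UMIs and had at least 2 CD45R counts in 22 cells, while 128 of them had at least 2 myeloid UMIs.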

How the results depend on the processing

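No paired analysis was possible because each group had 1 library, and for the same reason no replicate could be left out. Of 576 values recomputed under an alternative, 493 stayed within the main value's counting interval or, for counts of genes past 2-fold, within 1.5 times the count, 82 moved further and 1 turned direction. That was the log2 ratio of lambda V genes at 2h over naive, at -0.14 with B cells at 2h chosen by the CD45R antibody. Without B cells holding myeloid or T cell UMIs (324, 878 and 234 cells left), the level at 2h was 328 CPM for all V genes and 196 CPM for kappa, and at 3d 19.0 CPM for kappa and 0 for lambda. At 3d the V UMIs per 100 constant UMIs were then 0.883 for heavy, 0.315 for kappa and 0 for lambda, and the B-1 V genes, lambda-class cells with a kappa V UMI and cells with more than 1 kappa V gene were at 0%, and kappa-class cells with a kappa V UMI at 8.95%. Kappa assignment at 3d was then 0.427%, Ighv1 40.0% at 3d (5 assigned cells) and 0% in the naive library (6 cells), Igkv1 and Igkv1-117 0% at 3d (1 cell), and Ighv1-26 0% at 3d and in the naive library. By the CD45R antibody, levels at 2h were 214 CPM for all, 74.3 for heavy, 130 for kappa and 9.36 for lambda. The log2 ratio of all V genes at 2h over naive was then 0.93, and at 2h over 3d it was 1.86, against 2.14 with at least 4 marker UMIs or without plasma-like cells, 2.09 as a mean over cells and 2.60 without cells holding myeloid or T cell UMIs. At 3d over naive it was -0.77 as a mean over cells. Without plasma-like cells they were 248 CPM for all and 13.6 CPM for lambda, with a heavy ratio of 3.86. With at least 4 marker UMIs, levels at 3d were 62.9 CPM for all and 36.8 CPM for heavy, assignment at 2h was 1.91% for heavy and 2.73% for kappa, and Igkv1-117 had 0% of 10 assigned cells at 2h. As a mean over cells, levels at 3d were 0.623 per 10000 UMIs for all and 0.372 for heavy. With no cell filter, lambda at 3d was 2.95 CPM with a ratio of 0.382, and the heavy ratio at 3d was 0.893. Thinning to 1000 UMIs gave detection of 9.68%, 20.4% and 6.09%.

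Asking for 5 UMIs and 80% left heavy assignment at 0%, 0.0987% and 0% and kappa at 0.379%, 0.197% and 0%, with Ighv1, Igkv1 and Igkv1-117 at 0% at 2h and Igkv1 at 100% and Igkv1-117 at 50% of 2 naive cells. From at least 1 UMI, Igkv1-117 was 10.3% of naive assigned cells. V genes past 2-fold numbered 1 at 2h over 3d by median of ratios, with no cell filter or with a pseudocount of 1 CPM, and 3 with a minimum of 1 UMI. At 2h over naive they numbered 1 with no cell filter and 3 with a minimum of 1 UMI, and at 3d under naive 1 with a pseudocount of 1 CPM. The share of all genes past 2-fold under each alternative is not given here, so these counts are no result about V genes. With no cell filter the plasma-like cell at 3d is counted, and the gene called need not be Igkv1-117. V UMIs per 100 constant UMIs in B cells ran from 0.231 (lambda, 3d) to 3.69 (kappa, 2h), and gene shares rest on counts of a few cells. The 2h B cells were the shallowest (median 813 UMIs), and the part of depth in the gene shares was not tested. The naive state, the pool of 2 mice and the Cell Ranger version cannot be told apart. The alternatives for the ratios between libraries, heavy family shares of UMIs, light chain classes, cells with several kappa genes and the CD45R rule were chosen after seeing the data.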

Other observations

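V gene usage by cells was alike in part between libraries, as a description over genes that are not independent replicates and that share the annotation and the mapping. Over the 113 heavy genes annotated as V genes, Spearman's rho of the share of cells with a V UMI of the chain that held each gene was 0.36 between the naive and 2h libraries, 0.53 between naive and 3d and 0.55 between 2h and 3d. Over the 100 kappa genes it was 0.51, 0.60 and 0.62. Antibody counts of IGKC and IgD were 0 in B cells of the 2h and 3d libraries, so that these gave no check of chain or class.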
